A study of Mus musculus with 4 samples.

Results

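A set of 40 genes of the skeletal muscle sarcomere, its calcium release system, its energy metabolism and its transcriptional control were followed across 4 arrays of the mouse mammary gland. The genes were taken from a list of 40 names, and for each gene the brightest probe set that the array annotation assigns to a single gene was used. Such a probe set was listed for 36 of the 40, out of 17097 genes on the array, and Neb, Mybpc2, Ampd1 and Smpx were not analysed here. The samples were intact inguinal mammary glands, taken with their epithelium, at postnatal day 10. The 2 knockout glands came from Mt1-mmp(-/-) mice, which lack Mt1-mmp (Mmp14), a collagen-degrading protease anchored in the cell membrane, in every cell of the body. The 2 wild-type glands came from Mt1-mmp(+/+) littermates, and all mice were of an outbred Swiss Black background. The sex of the mice is not given in the labels, nor is whether each array held RNA of 1 mouse. Each array was labelled a biological replicate, and the values are log2 expression values made by the authors with RMA.

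Striated muscle contracts when calcium, released from the sarcoplasmic reticulum through the ryanodine receptor, binds troponin and frees actin for myosin. Fast and slow fibres carry different gene products for most of this machinery, and fast fibres are further divided by the myosin heavy chain they use, IIa (Myh2), IIx (Myh1) or IIb (Myh4). Embryonic (Myh3) and perinatal (Myh8) heavy chains come before these in development. The mammary fat pad itself holds no skeletal muscle, but it lies between the skin, with its thin cutaneous muscle, and the muscle of the body wall.

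The promoters of 5 myosin heavy chain genes and of skeletal actin are shown because the heavy chains of this neighbourhood differed in which arrays they were high. The sequences are the 250 bases before the transcript start, from RefSeq on GRCm38.p6. In the RefSeq table Myh3, Myh2, Myh1, Myh4 and Myh8 stand next to each other in this order on chromosome 11. The windows were chr11:67199852-67200101 for Myh1, chr11:67170777-67171026 for Myh2, chr11:67237562-67237811 for Myh4, chr11:67276874-67277123 for Myh8 and chr11:67078050-67078299 for Myh3, all on the plus strand, and chr8:123894776-123895025 on the minus strand for Acta1. Capitals mark matches on either strand to the E-box CANNTG, which binds MyoD family factors and includes CAGCTG, to the MEF2 site or to the CArG box, the binding site of serum response factor.
Myh1: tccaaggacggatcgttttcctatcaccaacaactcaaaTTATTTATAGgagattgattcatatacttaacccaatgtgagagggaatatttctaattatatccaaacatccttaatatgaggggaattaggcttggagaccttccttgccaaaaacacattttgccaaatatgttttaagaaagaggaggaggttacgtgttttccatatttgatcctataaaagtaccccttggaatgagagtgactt
Myh2: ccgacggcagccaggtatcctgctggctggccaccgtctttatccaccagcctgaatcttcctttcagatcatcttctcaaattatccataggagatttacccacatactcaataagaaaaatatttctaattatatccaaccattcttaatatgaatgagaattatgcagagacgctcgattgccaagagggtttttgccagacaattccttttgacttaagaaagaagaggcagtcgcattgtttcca
Myh4: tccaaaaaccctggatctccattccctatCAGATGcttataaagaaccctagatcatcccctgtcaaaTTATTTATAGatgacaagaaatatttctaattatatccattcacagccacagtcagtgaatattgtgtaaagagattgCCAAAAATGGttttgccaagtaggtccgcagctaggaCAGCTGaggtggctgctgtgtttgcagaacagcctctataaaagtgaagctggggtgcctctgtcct
Myh8: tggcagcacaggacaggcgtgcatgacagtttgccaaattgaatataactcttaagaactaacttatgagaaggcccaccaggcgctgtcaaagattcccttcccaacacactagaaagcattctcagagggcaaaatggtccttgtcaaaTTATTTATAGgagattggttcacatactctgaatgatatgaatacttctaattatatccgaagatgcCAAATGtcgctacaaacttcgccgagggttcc
Myh3: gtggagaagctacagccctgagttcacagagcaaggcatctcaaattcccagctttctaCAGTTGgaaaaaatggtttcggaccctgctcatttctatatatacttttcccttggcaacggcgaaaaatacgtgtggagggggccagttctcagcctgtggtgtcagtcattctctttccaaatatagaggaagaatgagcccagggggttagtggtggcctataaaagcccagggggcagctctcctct
Acta1: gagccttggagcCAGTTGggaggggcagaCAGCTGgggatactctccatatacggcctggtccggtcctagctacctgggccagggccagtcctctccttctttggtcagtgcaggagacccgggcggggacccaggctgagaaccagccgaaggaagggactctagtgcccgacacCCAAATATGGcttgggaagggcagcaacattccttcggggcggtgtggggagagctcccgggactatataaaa
The MEF2 match in Myh1, Myh4 and Myh8 was the same run of bases, TTATTTATAG, and it lay 211 to 202, 182 to 173 and 99 to 90 bases before the start. The Myh2 window held no match to any of these motifs, and Myh3 held 1 E-box. Windows were set by the listed transcript starts and were not aligned to each other. Distances, and the lack of a match in Myh2, thus cannot be compared between genes. CArG matches lay 104 to 95 bases before the start in Myh4 and 73 to 64 bases before it in Acta1. A window of this length was listed for 30 of the 36 members. A MEF2 match stood in 7 of these 30 (23.3%) and in 813 of 27025 genes' windows (3.01%), a CArG match in 4 (13.3%) against 1.4% of all, CAGCTG in 13 (43.3%) against 12.8% and any E-box in 25 (83.3%) against 66.0%. These matches are letters in a window and were not tested as binding sites.

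The targeted gene checked the labels. The brighter Mmp14 probe set gave 5.83 and 5.68 in the knockout arrays, against 8.92 and 8.73 in the wild-type arrays. Both knockout arrays were low, including the one rich in muscle transcripts. Whether the probe set lies in the deleted part is not given. Across genes the 2 knockout arrays correlated at r = 0.925 and the 2 wild-type arrays at 0.992, as a description, since genes share the arrays' other differences. Markers of the labelled tissue were present, with the luminal keratin gene Krt8 at 8.64 and 8.93 in the knockout arrays against 8.73 and 7.38 in the wild-type arrays.

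Muscle transcripts were abundant in 1 of the 2 knockout glands, at a lower level in 1 of the 2 wild-type glands, and, except for Myl1 and a few others, near the array medians in the remaining glands. The median over the 36 muscle genes was 4.69 in knockout replicate 1 and 9.49 in knockout replicate 2, against 4.67 in wild-type replicate 1 and 5.32 in wild-type replicate 2 (log2). The median of all probe sets was 4.92 to 4.98 in the 4 arrays. Knockout replicate 2 was the highest array for 34 of the 36 genes, where 33.2% of all genes had that array highest. It was at least 2-fold above the wild-type mean for 26 of 36, where 1.8% of all genes were. For 27 genes wild-type replicate 2 came second to it, an order whose share over all genes was not counted. Some of these gaps were small, as in Tnnc1, Myl2 and Mybpc1, where wild-type replicate 2 was 0.01, 0.02 and 0.06 above wild-type replicate 1. Wild-type replicate 2 was at least 2-fold above wild-type replicate 1 for 11 of 36, where 0.445% of all genes were. Knockout replicate 1 was at least 2-fold below wild-type replicate 1 for 1 member, Myl1, where 0.988% of all genes were. In bulk tissue, a gland with fewer muscle cells and a gland with less muscle RNA per cell cannot be told apart. Single arrays carry no test, so these counts are descriptions.

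**Figure D1:**
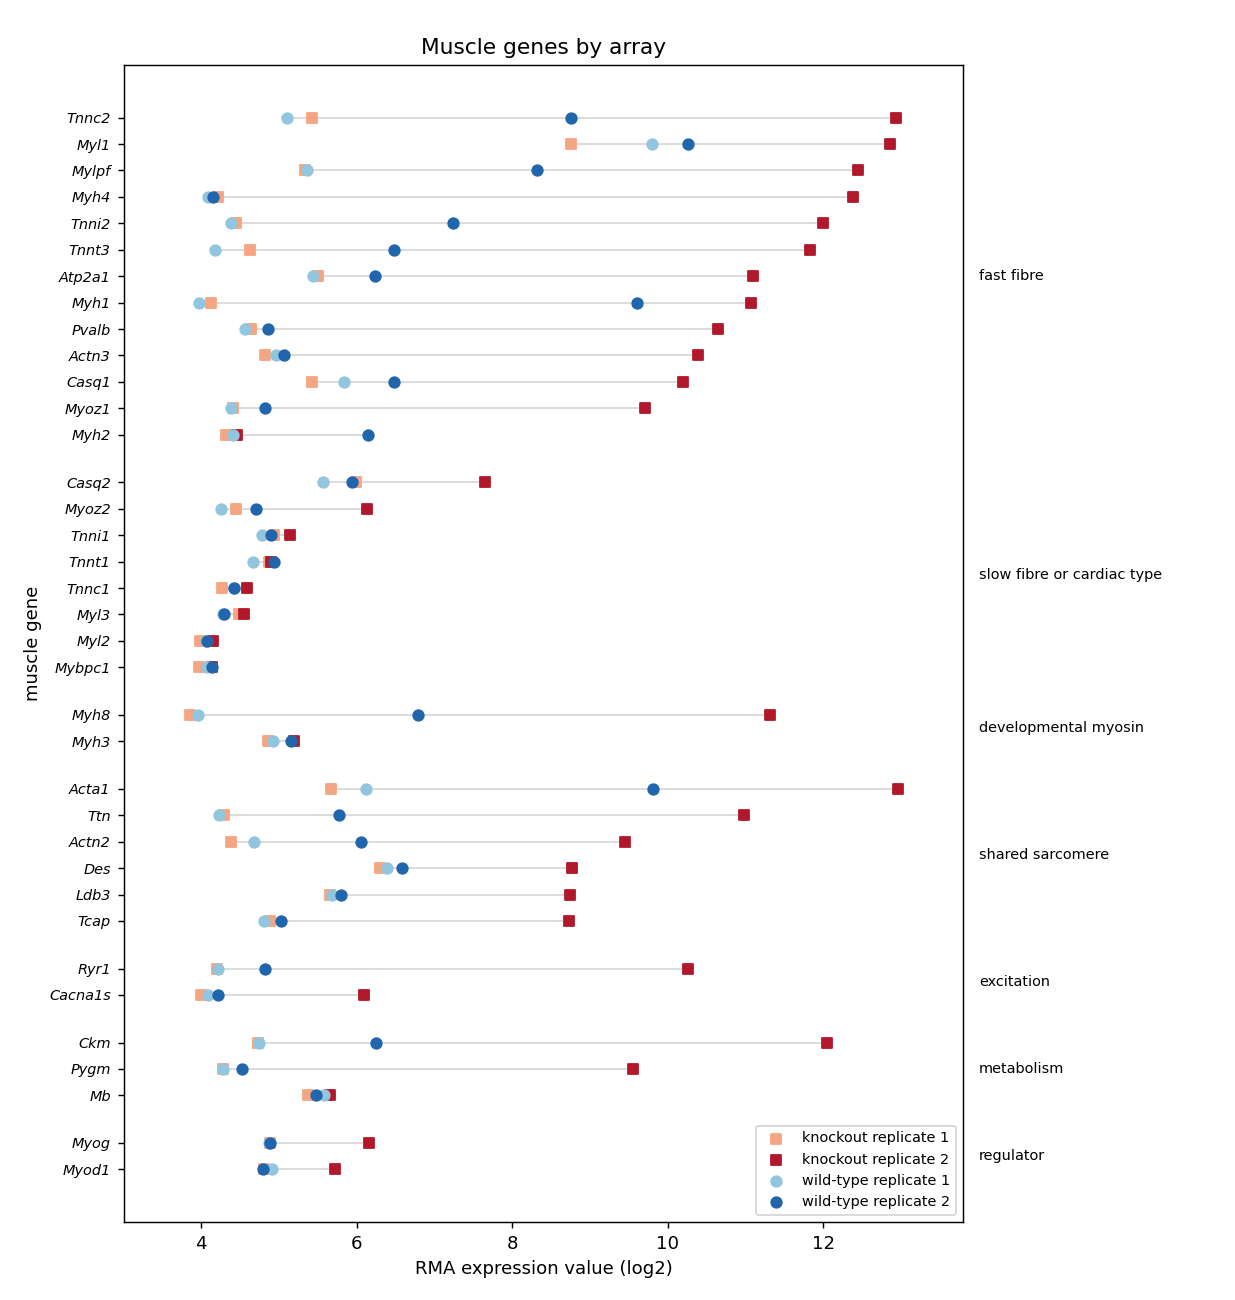
RMA expression values (log2, horizontal axis) of the 36 muscle genes with a probe set, grouped by class, with 1 point per array and a line from the lowest to the highest array. Knockout replicate 2 is the rightmost point for 34 genes, and wild-type replicate 2 stands apart from wild-type replicate 1 by at least 2-fold for 11.

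The comparison of genotypes asked which transcripts of the gland differ without the protease, and it found no muscle gene that passed. Of the 36 muscle genes, 27 were bright enough on average to be tested, and in limma 0 of 27 passed a Benjamini-Hochberg adjusted p of 0.05, where 0 of 11078 genes (0% higher, 0% lower) did. At an unadjusted p under 0.05 there were 0 of 27, against 21.8% of all genes tested. Of the 27, 10 reached the brightness threshold only through knockout replicate 2, the array that also widens their spread. Such genes could hardly pass, so this count supports nothing by itself. The smallest adjusted p among the 27 was 0.379, for Casq2 (1.07 ± 0.61 on the log2 scale, knockout minus wild type, SE, n = 2 per group). The median difference over the 36 genes was 1.41, against -0.00070 over all 17097 genes, and it was 3.92 for knockout replicate 2 and -0.18 for knockout replicate 1 against the wild-type mean. The 2 knockout arrays lay above both wild-type arrays for 5 of 36 (Myh4, Casq2, Myog, Tnni1 and Myl3), where 23.5% of all genes did, and below both for 0 of 36, where 26.6% did. With knockout replicate 1 left out, limma called 22 of 27 higher and 0 lower, where 13.1% of all genes were higher and 24.6% lower. That count supports nothing by itself, since 10 of the 27 reached the brightness threshold only through knockout replicate 2, the array then compared. With no brightness filter, a setting added after the data were seen, the same fit called 24 of all 36 higher and 0 lower, where 9.79% of 17097 genes were higher and 16.2% lower. Both fits take the spread of the wild-type arrays for the only knockout array, and Tnnc2, Acta1, Myh1, Mb and Myh3 passed in neither. With knockout replicate 2 left out, 0 of 27 were called, where 6.73% of all genes were higher and 4.99% lower, and the median difference was -0.18.

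Among myosin heavy chains, the motors of the thick filament, the 2 arrays with muscle transcripts differed in which isoforms were high. Myh4, the fast IIb chain, was 4.21 in knockout replicate 1 and 12.38 in knockout replicate 2, against 4.09 in wild-type replicate 1 and 4.15 in wild-type replicate 2. It was thus high in a single array, where it was 307-fold above the wild-type mean. RMA compresses values near the background, so such folds may understate the difference. Myh1, the fast IIx chain, was 4.13 and 11.06 in the knockout arrays, against 3.97 and 9.60 in the wild-type arrays. Replicate 2 was the high array in both genotypes, so the genotypes overlapped. In the probe set used, wild-type replicate 2 was 49.4-fold above wild-type replicate 1. In 2 dim Myh1 sets that excess was 0.39 and -0.06 (log2). Myh2, the fast IIa chain, was 4.32 and 4.46 in the knockout arrays, against 4.41 and 6.15 in the wild-type arrays. Only wild-type replicate 2 stood apart among these 4 arrays, by 1.73 over wild-type replicate 1, and the mean of Myh2 was too low for the test. Myh8, the perinatal chain, was 3.86 and 11.32 in the knockout arrays, against 3.95 and 6.78 in the wild-type arrays. Myh3, the embryonic chain, was 4.86 and 5.19 in the knockout arrays, against 4.93 and 5.16 in the wild-type arrays, so its 4 values spanned little and the genotypes overlapped. In limma the differences were 0.81 ± 3.18 for Myh1 (adjusted p = 0.896), 4.18 ± 2.91 for Myh4 (0.451), 2.22 ± 2.84 for Myh8 (0.672) and -0.02 ± 0.17 for Myh3 (0.956), all as knockout minus wild type with SE and n = 2 per group.

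**Figure D2:**
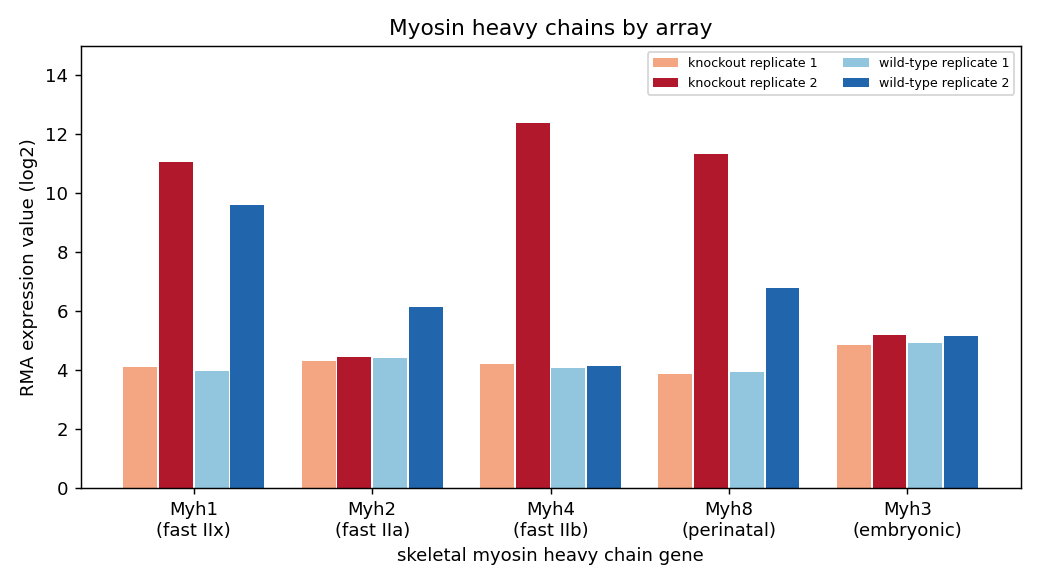
RMA expression values (log2) of the 5 skeletal myosin heavy chain genes, with 1 bar per array. Myh1 and Myh8 are raised in replicate 2 of both genotypes, Myh4 in knockout replicate 2 alone (12.38) and Myh2 in wild-type replicate 2 alone (6.15).

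Genes of the fast troponin complex, the calcium switch of the thin filament, followed 1 pattern. Tnnc2, which binds the calcium, was 5.42 and 12.94 in the knockout arrays, against 5.10 and 8.75 in the wild-type arrays. Tnni2, the inhibitory subunit, was 4.44 and 12.00 in the knockout arrays, against 4.38 and 7.24 in the wild-type arrays. Tnnt3, the tropomyosin-binding subunit, was 4.62 and 11.83 in the knockout arrays, against 4.17 and 6.48 in the wild-type arrays. In each of the 3 genes both replicate 1 arrays were low, knockout replicate 2 was highest and wild-type replicate 2 lay between. Knockout replicate 2 exceeded wild-type replicate 2 by 4.19 in Tnnc2, 4.75 in Tnni2 and 5.35 in Tnnt3 (log2). Limma gave adjusted p-values of 0.683, 0.649 and 0.561, with differences of 2.25 ± 2.98, 2.41 ± 2.88 and 2.90 ± 2.70 (SE, n = 2 per group).

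Of the fast myosin light chains, Mylpf, the regulatory chain, was 5.33 and 12.45 in the knockout arrays, against 5.36 and 8.32 in the wild-type arrays. It had the troponin pattern, with wild-type replicate 2 7.80-fold above wild-type replicate 1. Myl1, the essential chain, was 8.75 and 12.86 in the knockout arrays, against 9.80 and 10.26 in the wild-type arrays. Myl1 stood well above the array medians in all 4 arrays, and its lowest array was knockout replicate 1, 1.04 below wild-type replicate 1. The remaining fast members were high in knockout replicate 2 alone. Pvalb, a calcium buffer that speeds relaxation, was 4.64 and 10.64 in the knockout arrays, against 4.56 and 4.86 in the wild-type arrays. Actn3, the Z-disc actinin of fast fibres, was 4.82 and 10.38 in the knockout arrays, against 4.96 and 5.06 in the wild-type arrays. Myoz1, a Z-disc protein that binds calcineurin, was 4.41 and 9.70 in the knockout arrays, against 4.38 and 4.83 in the wild-type arrays. In these 3 genes wild-type replicate 2 exceeded wild-type replicate 1 by 0.10 to 0.45, well under the 2.31 to 3.65 seen for the fast troponins. The calcium handling genes lay close to them. Atp2a1, the calcium pump of the fast sarcoplasmic reticulum, was 5.51 and 11.09 in the knockout arrays, against 5.44 and 6.23 in the wild-type arrays. Casq1, which stores calcium there, was 5.43 and 10.19 in the knockout arrays, against 5.84 and 6.48 in the wild-type arrays. Over the 13 fast members the median excess of knockout replicate 2 over the wild-type mean was 5.37. At least 2-fold above that mean were 12 of 13, all but Myh2, where 1.8% of all genes were.

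Most slow-fibre and cardiac-type isoforms showed little of this. Over the 8 genes the median excess of knockout replicate 2 over the wild-type mean was 0.22. At least 2-fold above that mean were 2 of 8, where 1.8% of all genes were. The median was 0.093 where probe sets that may match several transcripts were left out. Names of such sets end in _x_at or _s_at, as do those of the sets used for Casq2 and Myl3. The 2 genes past 2-fold were Casq2 and Myoz2. Casq2, the cardiac-type calcium store, was 5.98 and 7.65 in the knockout arrays, against 5.56 and 5.94 in the wild-type arrays. Myoz2, a slow-fibre Z-disc protein, was 4.45 and 6.14 in the knockout arrays, against 4.25 and 4.71 in the wild-type arrays. In both genes knockout replicate 2 alone stood apart. The slow troponin genes did not separate the arrays. Tnnt1 was 4.87 and 4.89 in the knockout arrays, against 4.67 and 4.94 in the wild-type arrays. Tnni1 was 4.94 and 5.14 in the knockout arrays, against 4.78 and 4.90 in the wild-type arrays. Tnnc1 was 4.27 and 4.59 in the knockout arrays, against 4.42 and 4.43 in the wild-type arrays. All 12 values lay near or below the array medians, where RMA compresses differences. The slow light chain genes Myl2 and Myl3 and the slow myosin-binding protein gene Mybpc1 ranged from 3.97 to 4.55 over the 4 arrays, and knockout replicate 2 exceeded the wild-type mean by 0.08, 0.26 and 0.03. Only Casq2 of the 8 was bright enough to be tested. For the troponin T pair, the excess of knockout replicate 2 over the wild-type mean was 6.50 for fast Tnnt3 and 0.09 for slow Tnnt1, for troponin I 6.18 and 0.30, and for troponin C 6.01 and 0.17. For the calsequestrins it was 4.03 for Casq1 and 1.90 for Casq2, and for the myozenins 5.10 for Myoz1 and 1.66 for Myoz2. A dimmer second Myoz1 set gave 0.34, below Myoz2. These are differences within a gene between arrays, since levels of different probe sets cannot be set against each other.

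Sarcomere genes shared by both fibre types followed the fast pattern. Acta1, the actin of the skeletal thin filament, was 5.67 and 12.96 in the knockout arrays, against 6.12 and 9.81 in the wild-type arrays. Ttn, the giant spring protein titin, was 4.29 and 10.97 in the knockout arrays, against 4.23 and 5.77 in the wild-type arrays. Actn2, the Z-disc actinin of all fibres, was 4.39 and 9.44 in the knockout arrays, against 4.68 and 6.05 in the wild-type arrays. In these 3 genes wild-type replicate 2 was 12.9-fold, 2.92-fold and 2.59-fold above wild-type replicate 1, and the genotypes overlapped. Tcap, a titin-capping protein, was 4.88 and 8.74 in the knockout arrays, against 4.81 and 5.03 in the wild-type arrays. Ldb3, which holds the Z-disc together, was 5.66 and 8.75 in the knockout arrays, against 5.68 and 5.79 in the wild-type arrays. Des, the intermediate filament protein desmin, which smooth muscle also makes, was 6.30 and 8.77 in the knockout arrays, against 6.39 and 6.58 in the wild-type arrays. In these last genes knockout replicate 2 alone was high, and wild-type replicate 2 lay within 0.22 of wild-type replicate 1. The median excess of knockout replicate 2 over the 6 shared genes was 3.95.

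Genes of excitation were high in knockout replicate 2 alone. Ryr1, the calcium release channel, was 4.20 and 10.26 in the knockout arrays, against 4.21 and 4.83 in the wild-type arrays. Cacna1s, the voltage sensor that opens it, was 4.00 and 6.10 in the knockout arrays, against 4.08 and 4.22 in the wild-type arrays. Of the energy genes, Ckm, the muscle creatine kinase, was 4.73 and 12.04 in the knockout arrays, against 4.75 and 6.24 in the wild-type arrays. Here wild-type replicate 2 was also raised, 2.82-fold over wild-type replicate 1. Pygm, which breaks down muscle glycogen, was 4.28 and 9.55 in the knockout arrays, against 4.28 and 4.52 in the wild-type arrays. Mb, the oxygen-binding myoglobin, was 5.38 and 5.65 in the knockout arrays, against 5.58 and 5.48 in the wild-type arrays. In this probe set no array stood apart, and limma gave -0.02 ± 0.14 (SE, n = 2 per group, adjusted p = 0.955). The MyoD family members, which switch on the muscle programme, showed small excesses in knockout replicate 2. Myog was 4.89 and 6.16 in the knockout arrays, against 4.87 and 4.88 in the wild-type arrays. Myod1 was 4.80 and 5.72 in the knockout arrays, against 4.91 and 4.80 in the wild-type arrays. Neither differed between the wild-type arrays by more than 0.11.

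The muscle signal of wild-type replicate 2 was therefore set against that of knockout replicate 2 gene by gene. Knockout replicate 2 exceeded wild-type replicate 2 by 8.23 in Myh4, 5.80 in Ckm, 5.78 in Pvalb, 5.43 in Ryr1 and 5.32 in Actn3. The excess was 4.54 in Myh8 and 3.15 in Acta1, and it narrowed to 1.47 in Myh1. For Myh2 the order turned, with knockout replicate 2 1.69 below wild-type replicate 2. As folds over wild-type replicate 2, knockout replicate 2 stood at 299.8 in Myh4, 55.8 in Ckm, 8.87 in Acta1 and 2.76 in Myh1. Of the 13 fast members 6 were at least 2-fold higher in wild-type replicate 2 than in wild-type replicate 1, where 0.445% of all genes were. They were Myh1, Myh2, Tnnc2, Tnni2, Tnnt3 and Mylpf. The other 7 fast members differed by 0.07 to 0.79 between the same arrays. Outside the fast class the genes past 2-fold were Acta1, Ttn, Actn2, Ckm and Myh8.

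**Figure D3:**
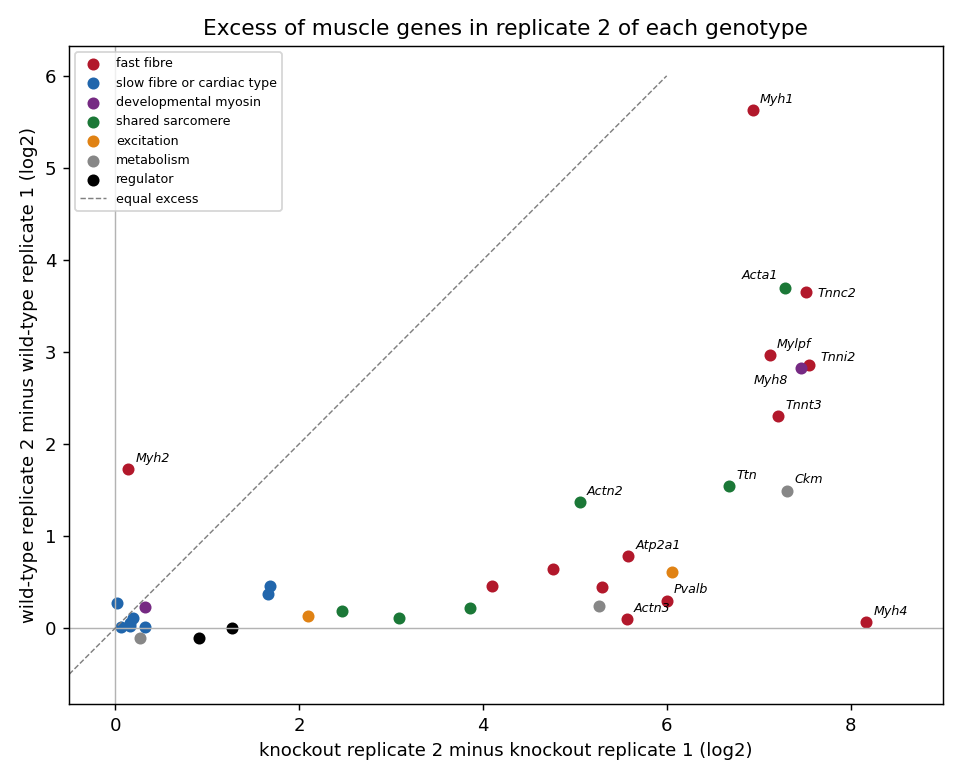
Each point is 1 of the 36 muscle genes, placed by the log2 difference of replicate 2 from replicate 1 in the knockout (horizontal) and in wild type (vertical), and coloured by class, with a dashed line of equal excess. Myh1 has an excess in both genotypes (6.94 and 5.63), Myh4 in the knockout alone (8.17 and 0.07) and Myh2 in wild type alone (0.14 and 1.73).

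Further probe sets were listed for 11 members, up to 4 for 1 gene. A second Myh1 set of almost the same brightness gave 3.89 and 11.28 in the knockout arrays, against 4.03 and 9.46 in the wild-type arrays. Its name ends in _x_at, so it may match several transcripts. The other 2 Myh1 sets were dim, with excesses of wild-type replicate 2 over replicate 1 of 0.39 and -0.06. The second Myh4 set was dim as well, with 4.13 and 5.03 in the knockout arrays against 4.09 and 4.10 in the wild-type arrays. It showed the same single high array as the brighter set. The 3 Ttn sets had excesses of knockout replicate 2 over the wild-type mean of 5.97, 4.90 and 2.02, and 3 Tnni2 sets 6.18, 5.05 and 0.44. The name of the Ttn set at 4.90 ends in _s_at and that of the Tnni2 set at 5.05 in _x_at. Of 2 dimmer Ldb3 sets 1 showed more than the set used and 1 less, 4.63 and 0.88 against 3.01. In the second Mb set knockout replicate 2 was the highest array, at 5.55 and 0.73 above the wild-type mean, and knockout replicate 1 the lowest, at 4.36. The second sets of Ckm and Des gave 0.50 and -0.05, against 6.55 and 2.29 in the sets used. Those of Myoz1 and Ryr1 gave 0.34 and 1.93, against 5.10 and 5.74. The further Myl3 sets gave 0.05 and 0.15, against 0.26. The annotation cannot say which transcripts each set detects, so the size of a difference holds for the set named.

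Other muscle genes were read from lists of 97 names that hold no member. Of these 84 had a probe set. In knockout replicate 2 35 of 84 stood at least 2-fold over the mean of the wild-type arrays, where 1.8% of all genes did. The same 1.8% is the share beside each later 2-fold count of knockout replicate 2. At least 2-fold under that mean were 3 of 84, Myl4 (-1.02), Gpd1 (-1.36) and Cox7a1 (-1.03). Of the 11078 tested genes 566 were that low, so these 3 are named only as a description. Wild-type replicate 2 was at least 2-fold above wild-type replicate 1 for 2 of 84, Eno3 (1.26) and the triadin gene Trdn (1.19), where 0.445% of all genes were. In limma 0 of the 52 bright enough passed the adjusted p of 0.05 in either direction, and at an unadjusted p under 0.05 there were 1 higher, Fbxo32 (1.25), and 5 lower, Myl4 (-1.04), Cox7a1 (-0.93), Cox8b (-0.71), Atp2a2 (-0.39) and Gpd1 (-0.95), where 9.69% of all genes tested were higher and 12.1% lower. Cox7a1 and Cox8b also stand in the list of brown and beige adipocyte markers. These genes were named after their values were seen. Other sarcomere genes exceeded the wild-type mean in knockout replicate 2 by 5.76 in Klhl41, 5.50 in the myotilin gene Myot, 4.42 in the myopalladin gene Mypn and 4.06 in Actc1, the cardiac actin that fetal skeletal muscle also makes, and 14 of 24 were past 2-fold. Calcium handling genes did so by 5.24 in Trdn, 4.06 in Srl, 3.65 in the calcium channel subunit gene Cacng1 and 3.52 in the calcium-binding Hrc, with 5 of 12 past 2-fold. Metabolic genes did so by 5.75 in the phosphoglycerate mutase gene Pgam2, 4.99 in the enolase gene Eno3, 4.98 in Cox6a2 and 4.30 in the mitochondrial creatine kinase gene Ckmt2, with 7 of 12 past 2-fold. The muscle turnover genes were past it in 4 of 4, led by the ubiquitin ligase gene Trim63 (3.24) and Trim54 (1.87), with Fbxo32 (1.21) and Asb2 (1.07). Fbxo32 was high in both knockout arrays, with 6.85 and 6.78 against 5.68 and 5.46 in the wild-type arrays. Genes of the neuromuscular junction reached 2-fold in 1 of 10, the acetylcholine receptor gene Chrna1 (1.62), and Chrne (0.74), Chrnb1 (0.41) and Rapsn (0.34) below it. The myogenic regulators and progenitor genes did so in 1 of 14, Myf6 (1.71), and Mef2d (0.77), Vgll2 (0.58) and Eya4 (0.44) below it. The dystrophin complex list had 3 of 8, the caveolin gene Cav3 (2.04), the sarcoglycan gene Sgca (1.53) and the calpain gene Capn3 (1.02), with Mlip (0.74) under 2-fold.

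Genes ranked by the gap between knockout replicate 2 and the highest of the other 3 arrays were mostly of these lists. Among the 10 largest gaps of the 11078 tested genes 6 were members and 3 were of the other muscle lists, and among the 50 largest 20 were members and 15 of the other lists. These counts are descriptions and support nothing by themselves. Of the 27 tested members, 10 reached the brightness threshold only through knockout replicate 2, the array ranked here. The lists were also chosen with earlier results of these data known, a limit that holds for the next ranking as well. Outside the lists the 10 largest gaps were those of Apobec2 (5.69), Atp1b4 (4.68), Itgb1bp2 (4.33), Tceal7 (4.30), Sh3bgr (4.26), the ribosomal protein paralog gene Rpl3l (4.06), 1110002E22Rik (3.99), Asb5 (3.89), Mlf1 (3.80) and the hemojuvelin gene Hjv (3.21). Ranked by the excess of wild-type replicate 2 over wild-type replicate 1, 6 of the first 10 genes were members, led by Myh1 (5.63), Acta1 (3.69) and Tnnc2 (3.65), and 0 were of the other muscle lists. Members were 27 of the 11078 genes ranked. Of the first 50 genes, 10 were members, 0 were of the other muscle lists and 36 were outside the lists. Outside the lists the 10 largest were the hair genes Krtap11-1 (2.82), Krtap6-5 (2.56), Krt33a (2.56), Krtap9-3 (2.36), Krtap16-3 (2.33) and Krtap19-1 (2.28), the interferon-induced GTPase genes Tgtp1 (2.74) and Iigp1 (2.61), and Prr9 (2.61) and BC023105 (2.30). Of these, Krtap11-1 was 10.38 and 4.53 in the knockout arrays, against 5.83 and 8.65 in the wild-type arrays. In wild type its higher array was the one with more muscle signal, and in the knockout it was the other one.

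Markers of other cell types also differed between the arrays, and their part in the muscle result was not tested. The epidermis and hair follicle markers, 8 of 10 on the array, had a summed linear signal of 10305 and 199.7 in the knockout arrays, against 689 and 2773 in the wild-type arrays. The sum was thus lowest in knockout replicate 2 and higher in wild-type replicate 2 than in replicate 1, as were 7 of the 8 genes between the wild-type arrays. The epidermal gene Krt1 went the other way, with 6.53 and 4.40 in the knockout arrays against 4.34 and 4.18 in the wild-type arrays. Lor was lowest in wild-type replicate 1, at 3.91 against 4.01 in knockout replicate 2. The hair sheath gene Tchh was 11.71 and 3.50 in the knockout arrays, against 8.25 and 10.43 in the wild-type arrays. The brown and beige adipocyte markers, 7 of 9 on the array, summed to 7835 and 5313 in the knockout arrays, against 14785 and 15679 in the wild-type arrays. The white adipocyte markers, 5 of 7 on the array, summed to 36103 and 30885 in the knockout arrays, against 37572 and 37079 in the wild-type arrays. That sum hides Lep, which was 6.95 and 4.48 in the knockout arrays, against 10.72 and 10.72 in the wild-type arrays. Lep was the only 1 of these 5 with a knockout mean at least 2-fold below the wild-type mean. The 7 luminal markers summed to 2241 and 1940 in the knockout arrays, against 1714 and 757 in the wild-type arrays. The 36 muscle genes summed to 1472 and 64628 in the knockout arrays, against 1940 and 5159 in the wild-type arrays. Myl1 weighs heavily on the lower sums, at 8.75 in knockout replicate 1 and 9.80 in wild-type replicate 1 (log2). The median over the 36 genes was 4.69 and 4.67 in these arrays. Cardiac markers were low in all 4 arrays, with 7 of 8 on the array, sums of 153 and 167 in the knockout arrays against 158 and 158 in the wild-type arrays, and the atrial peptide gene Nppa between 3.72 and 3.86. The smooth muscle and myoepithelial markers, 8 of 10 on the array, summed to 4640 and 5625 in the knockout arrays, against 5298 and 4542 in the wild-type arrays. In knockout replicate 2 0 of 8 reached 2-fold over the mean of the wild-type arrays, where 1.8% of all genes did. No marker was at 0, since the lowest value of the table was 3.16.

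**Figure D4:**
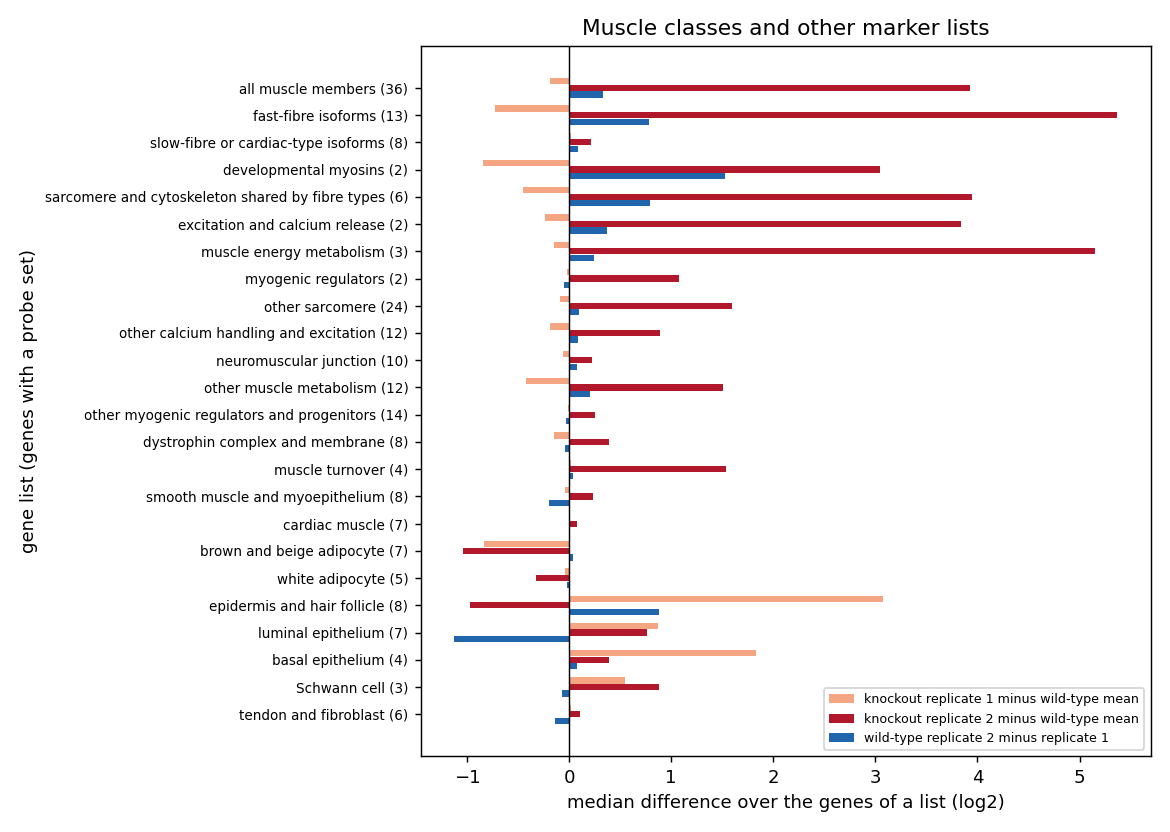
Median log2 difference over the genes of each list, for knockout replicate 1 and knockout replicate 2 against the wild-type mean and for wild-type replicate 2 against replicate 1, with the number of genes in parentheses. Fast-fibre genes reach 5.37 in knockout replicate 2 while slow-fibre genes stay at 0.22 and cardiac markers at 0.08, and epidermis and hair follicle markers are highest in knockout replicate 1.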

How the data were processed

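RNA of 4 mammary glands, 2 knockout and 2 wild type, was hybridised to 1 Affymetrix array each. The authors made the deposited values with affy and RMA, per the submitters' processing notes, which give no versions. The values are log2 expression values as deposited by the authors, a scale read from their range of 3.16 to 13.68. The table held 45141 probe sets, of which 28898 were listed with 1 gene, 551 with several and 15692 with none. Gene identifiers of 28689 matched RefSeq, on GRCm38.p6, and 0 symbols were updated.

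Each of 17097 genes was represented by its brightest single-gene probe set, and 11078 genes entered the test, those whose mean reached 4.94 (the median of probe set means). The genotypes were compared by limma, version 3.58.1, under R 4.3.3 (lmFit and eBayes, no covariate, Benjamini-Hochberg adjusted p under 0.05). The fit was tested on simulated data with known differences. Member medians cover all 36 genes, and differences between single arrays have no test. With 2 arrays per group, the number of arrays limits the precision, and p-values measure the spread between these arrays.

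All 40 members were accounted for. Other muscle lists name up to 4 genes by the size of the difference of knockout replicate 2, and outside the lists 10 genes were named by each ranking. Krtap11-1, Nppa, Tchh, Krt8, Krt1, Lor and Lep levels were chosen after their values were seen. Members and lists were chosen with earlier results of these data known. Alternatives covered the filter, probe set choice, scaling, variance trend, a replicate block and leaving out each array.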

Additional observations from a re-analysis of the deposited data

Results flagged for a closer look

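Probe sets without a single gene were not used in the comparisons, and some carried the same array pattern. Of 16139 such probe sets, 18 (0.112%) were at least 4-fold higher in knockout replicate 2 than in the highest of the other 3 arrays, with a largest gap of 6.26 on the log2 scale. Among probe sets with a single gene there were 81 of 28898 (0.28%), with a largest gap of 8.17. These probe sets were not named, and the groups of 2 arrays are too small for a check of single outlying samples.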

How the results depend on the processing

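In limma, 0 genes and 0 members passed under the other filters, probe set choices, scalings or variance trend, with 1750 to 2939 genes at an unadjusted p under 0.05. Leaving out 1 array moved the number of genes called between 0 and 4180 and of members called between 0 and 22, both highest without knockout replicate 1. With no brightness filter as well, an alternative chosen after seeing the data, 4444 genes and 24 members were called. Over the 3 arrays without knockout replicate 2, 10 of the 27 tested members lay below the brightness threshold. Leaving that array out thus says little about them. When 1 array was left out at a time, the median difference of the members ranged from -0.18 to 3.92. The median excess of knockout replicate 2 over the wild-type mean then ranged from 3.05 to 4.14, and that of the fast-fibre members from 4.75 to 6.08. The slow-fibre median (0.22) lay between 0.093 and 0.25 over all alternatives. When all probe sets of a gene were averaged, the excess was 2.83 for all members and 4.60 for the fast ones, and Mb turned to 0.060. The causes were not tested. The labels do not say that replicate numbers mark pairs, and deviations of same-numbered arrays correlated at -0.0885 over genes, so the numbers were not taken as pairs. With the replicate block, 0 genes and 0 members were called, and 1836 genes had an unadjusted p under 0.05, against 2411 without it.

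Members whose sign turned when an array was left out did so chiefly without knockout replicate 2, and were highest without knockout replicate 1. The difference of single members over the 4 fits that each left out an array ran from -2.66 to 4.28 for Myh1, -0.71 to 6.50 for Tnnt3, -1.37 to 6.18 for Tnni2, -1.51 to 6.01 for Tnnc2, -1.51 to 5.61 for Mylpf and -1.27 to 2.83 for Myl1. It ran from -0.33 to 5.25 for Atp2a1, -0.73 to 4.03 for Casq1, -0.19 to 5.37 for Actn3, -0.071 to 5.93 for Pvalb, -0.20 to 5.10 for Myoz1 and -0.18 to 0.15 for Myh3. The range was -1.51 to 5.95 for Myh8, -2.30 to 4.99 for Acta1, -0.71 to 5.97 for Ttn, -0.98 to 4.08 for Actn2, -0.041 to 3.82 for Tcap and -0.083 to 3.01 for Ldb3. It went from -0.18 to 2.29 for Des, -0.32 to 5.74 for Ryr1, -0.76 to 6.55 for Ckm, -0.12 to 5.15 for Pygm, -0.15 to 0.12 for Mb and -0.049 to 0.87 for Myod1. Without wild-type replicate 1, Myh1 and Acta1 (-0.50) were below 0 as well.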
